A study of Mus musculus with 6 samples.

Results

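The 10 genes described here encode checkpoint ligands, costimulators and related receptors that macrophages and T cells use to pass activating or inhibitory signals to each other. They were taken by symbol from the 56980 genes of a TPM table, and all 10 (Cd274, Pdcd1lg2, Cd80, Cd86, Cd40, Havcr2, Vsir, Vsig4, Pdcd1 and Sirpa) were found. RNA was sequenced from tumor-associated macrophages (TAMs) sorted as live CD45+CD11b+Ly6G-F4/80+ cells from ID8 tumors, with 3 libraries from wild-type (WT) and 3 from C5aR-/- mice. ID8 is a mouse ovarian epithelial cancer line, which was injected intraperitoneally, and tumors were taken 2 months later. All mice were female, on the C57BL/6 background and from 6 to 8 weeks old when obtained. The knockout is constitutive, so C5aR, the receptor for the complement fragment C5a, is missing from every host cell and not from TAMs alone. The comparison asks whether TAMs that lack C5aR carry different amounts of checkpoint and costimulatory mRNA. TPM is transcript abundance per transcript length, scaled to the same total in every library, so levels can be set side by side between genes. It keeps no sequencing depth, and the depth and counting error of these libraries are therefore unknown.

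Full T cell activation needs antigen recognition and a costimulatory signal, which CD80 and CD86 on the antigen-presenting cell give through CD28. CTLA-4 binds the same ligands and restrains the response. PD-L1 and PD-L2, encoded by Cd274 and Pdcd1lg2, engage PD-1 (Pdcd1) and dampen T cell signaling, and VISTA (Vsir) and VSIG4 are further inhibitory molecules of the B7 type. CD40 receives help from CD40L on T cells, TIM-3 (Havcr2) restrains both T cells and myeloid cells, and SIRPα (Sirpa) binds CD47 on tumor cells as a signal against phagocytosis. In solid tumors TAMs are among the cells that carry these molecules.

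Promoter sequence was examined for the members because PU.1, AP-1, C/EBP, NF-κB and IRF factors drive much of macrophage transcription. RefSeq (GRCm38.p6, the assembly also called mm10) held a start site for 7 of the 10 genes, and the 250 bases before it were searched on both strands. The 4 windows printed below belong to Havcr2, the only gene whose groups did not overlap, to Vsig4 and Cd80, whose levels differed most within a group, and to Cd274, which encodes PD-L1. Capitals mark matches to GAGGAA, the core bound by PU.1, or to TGANTCA. The latter is a loose form of the AP-1 site, whose central base is C or G, with any base allowed there.
Havcr2, chr11:46454681-46454930, plus strand: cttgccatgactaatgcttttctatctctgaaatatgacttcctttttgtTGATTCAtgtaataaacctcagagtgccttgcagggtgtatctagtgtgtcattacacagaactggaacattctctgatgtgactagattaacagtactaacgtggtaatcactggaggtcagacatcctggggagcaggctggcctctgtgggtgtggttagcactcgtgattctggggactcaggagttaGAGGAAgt
Vsig4, chrX:96293439-96293688, minus strand: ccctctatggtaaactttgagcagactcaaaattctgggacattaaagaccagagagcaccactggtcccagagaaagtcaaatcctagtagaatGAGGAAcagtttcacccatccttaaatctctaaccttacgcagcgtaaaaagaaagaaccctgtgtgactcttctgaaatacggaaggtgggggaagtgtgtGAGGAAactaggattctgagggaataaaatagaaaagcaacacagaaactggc
Cd80, chr16:38458683-38458932, plus strand: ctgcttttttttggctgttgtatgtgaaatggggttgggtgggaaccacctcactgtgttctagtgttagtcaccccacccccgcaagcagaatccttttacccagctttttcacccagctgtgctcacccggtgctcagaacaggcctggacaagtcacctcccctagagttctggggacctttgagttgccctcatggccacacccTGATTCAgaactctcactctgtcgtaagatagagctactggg
Cd274, chr19:29367188-29367437, plus strand: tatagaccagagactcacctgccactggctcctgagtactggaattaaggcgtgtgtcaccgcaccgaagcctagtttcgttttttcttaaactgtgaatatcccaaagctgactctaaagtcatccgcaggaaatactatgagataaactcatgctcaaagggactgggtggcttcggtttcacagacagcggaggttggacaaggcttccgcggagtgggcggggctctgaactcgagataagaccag
Havcr2 held GAGGAA from 8 to 3 bases before its start and TGATTCA from 200 to 194 bases before it. Vsig4 held GAGGAA at 2 places, from 155 to 150 and from 53 to 48 bases before the start, and Cd80 held TGATTCA from 42 to 36 bases before it. GAGGAA was also present in Pdcd1 and Pdcd1lg2. Among 10357 promoters of tested genes in windows of the same length, 23.1% held GAGGAA and 4.44% held TGANTCA. The other motifs searched were the IRF site, GAAA and GAAA with 2 bases between (2.9% of promoters), the C/EBP site TTGCNNAA (7.63%) and the κB site, GGG and CC with 5 bases between (61.3%). The κB letters were found in Cd80 and Pdcd1lg2, and none of these motifs was found in Cd274 or Vsir. The RefSeq start used for Cd80 lies inside the GENCODE gene span (chr16:38455561-38496335), so this window belongs to one of its start sites. These matches are descriptions of letters, and binding was not measured.

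The libraries were first checked against their labels. C5ar1, the gene deleted, had a TPM of 86.5, 37.3 and 16.2 in WT TAM 1, 2 and 3 and of 0.38, 0.11 and 0.05 in C5aR-/- TAM 1, 2 and 3. The macrophage markers Adgre1 (F4/80), Csf1r, Cd68 and Itgam (CD11b) were present in every library. Marker genes of other cells were present too, and none of the genes on the 7 other marker lists was at 0 in all libraries. Summed over its 11 genes, the T cell list ranged from 65.5 to 163 TPM in WT and from 31.0 to 121 in C5aR-/- TAMs. The 6 B cell genes ranged from 34.1 to 169 and from 10.3 to 176, the 11 dendritic cell genes from 75.3 to 88.4 and from 106 to 123, and the 6 NK cell genes from 5.31 to 16.0 and from 7.29 to 11.8. The 7 neutrophil genes ranged from 630 to 2325 TPM in WT and from 31.2 to 394 in C5aR-/- TAMs. In WT TAM 2, S100a8 and S100a9 had 641 and 1409 of the 2325 TPM. Ly6g, the gene of the marker gated against, had a TPM of 0.62, 4.94 and 0.92 in WT and of 0, 0.56 and 0 in C5aR-/- TAMs, and was too low to be tested. The 8 epithelial and mesothelial genes ranged from 2707 to 3071 and from 2331 to 3088. The 9 large peritoneal macrophage genes ranged from 691 to 2023 and from 648 to 842. In TAM 3 the epithelial and mesothelial sum exceeded that of 10 macrophage markers, at 3071 against 2082 TPM in WT and 2331 against 1956 in C5aR-/- TAMs. It was below the macrophage sum in the other libraries. Some members are also expressed by T cells, B cells or dendritic cells. The part of those cells, or of epithelial and mesothelial cells, in the values below was not tested. In sorted bulk RNA, fewer cells of a type and less RNA per cell cannot be told apart.

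No member differed between WT and C5aR-/- TAMs by 2-fold or more at an adjusted p under 0.05 (limma, Benjamini-Hochberg adjustment over the 14776 genes that reached a TPM of 1 in 3 or more libraries). Across all genes the same rule called 0.0%, with C5ar1 itself at an adjusted p of 0.0666 (limma). At an unadjusted p under 0.05 with a fold of at least 2, 0 of the 9 tested members passed, against 4.96% of all genes, and without the fold requirement 1 member passed, Havcr2, against 14.4% of all genes in either direction and 6.06% higher in C5aR-/- TAMs. Of the 9 tested members, 5 had a higher and 4 a lower mean of log2(TPM + 1) in C5aR-/- TAMs. Over all tested genes 44.5% had a higher mean, which is the share to set beside such counts for the lists below. The median difference of the members was 0.11 on the log2 scale, where the median over all tested genes was -0.05. Group membership held a median of 9.17% of a member's variance over the 6 libraries and of 22.0% for all tested genes. WT and C5aR-/- values overlapped for 9 of the 10 members, and 21.3% of all tested genes did not overlap. Nothing in the labels says whether the libraries came from separate mice, and the study's legends count more mice in a group than there are libraries here. The p-values therefore measure only the spread between these samples, and 3 libraries against 3 cannot give an exact permutation p below 0.1.

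**Figure D1:**
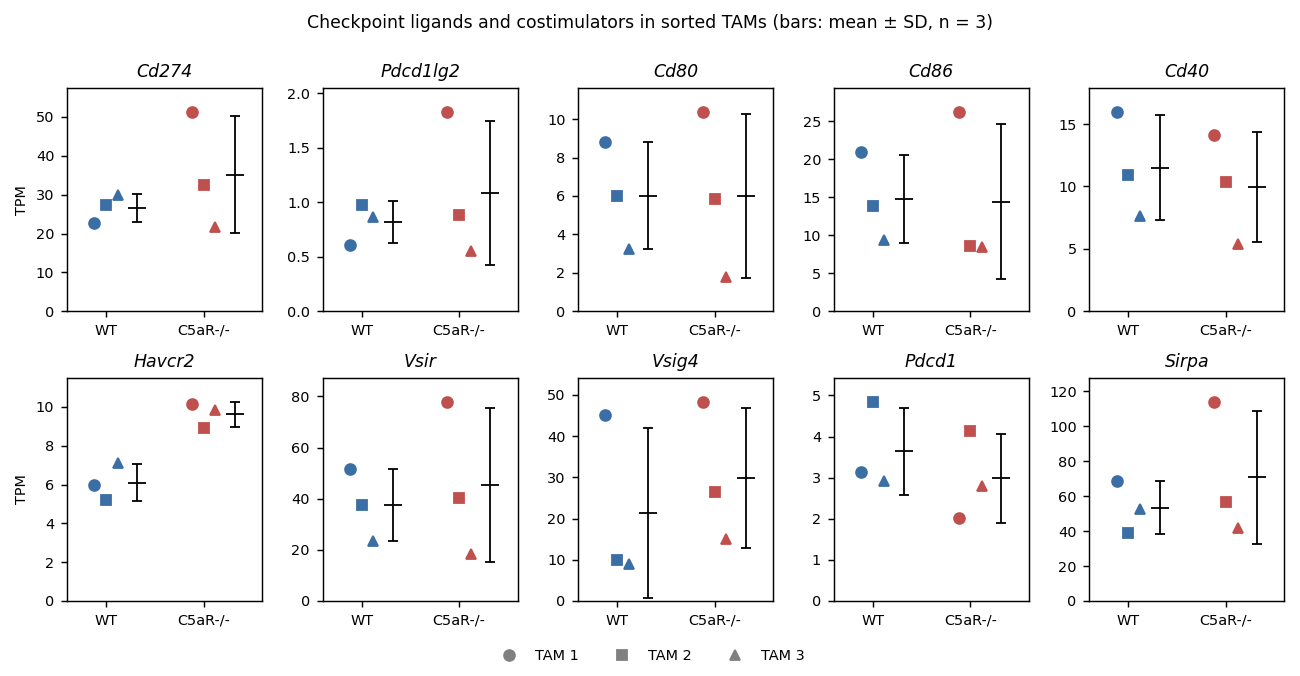
TPM of each of the 10 genes (y axis, from 0) in WT (blue) and C5aR-/- (red) TAMs, with 1 symbol per library and the mean ± SD (n = 3) beside each group. The Havcr2 values of C5aR-/- TAMs, from 8.90 to 10.1, all lie above those of WT TAMs, from 5.18 to 7.11, and the groups overlap in the other 9 panels.

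The PD-1 ligands differed more among C5aR-/- libraries than between groups. Cd274 (ENSMUSG00000016496, chr19:29367455-29388095, plus strand), the gene of PD-L1, had a TPM of 22.6, 27.2 and 29.8 in WT TAM 1, 2 and 3 and of 51.3, 32.5 and 21.6 in C5aR-/- TAM 1, 2 and 3. The highest and the lowest value were both in C5aR-/- TAMs, around a narrow WT group. The means were 26.5 ± 3.63 and 35.1 ± 15.0 TPM (SD, n = 3), and the log2 difference was 0.31 (95% interval -0.42 to 1.05, limma adjusted p = 0.680). Pdcd1lg2 (ENSMUSG00000016498, chr19:29410919-29471161, plus strand), the gene of PD-L2, starts 22824 bp beyond the end of Cd274. It was near the lower limit of the table, with a TPM of 0.61, 0.98 and 0.87 in WT and of 1.83, 0.88 and 0.55 in C5aR-/- TAMs. A single library reached a TPM of 1, so Pdcd1lg2 was not tested. With no filter on low values its log2 difference was 0.16 (standard error 0.27, limma adjusted p = 0.839). C5aR-/- TAM 1 was highest and C5aR-/- TAM 3 lowest for both ligands. The ratio of Cd274 to Pdcd1lg2 stayed between 27.8 and 39.3 over the 6 libraries, with a log2 difference between groups of 0.07 (two-sided exact permutation test, p = 0.6).

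Pdcd1 (ENSMUSG00000026285, chr1:94038305-94052553, minus strand) encodes PD-1, which is best known on T cells and is also found on TAMs. Its TPM was 3.14, 4.85 and 2.92 in WT and 2.01, 4.14 and 2.79 in C5aR-/- TAMs. Here TAM 2 was the highest library of each group, and the groups overlapped. Pdcd1 had a log2 difference of -0.23 (95% interval -0.92 to 0.46, limma adjusted p = 0.754), which allows a fall of almost a log2 unit as well as a modest rise.

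Costimulatory genes had almost equal means in the groups and wide spreads within them. Cd80 (ENSMUSG00000075122, chr16:38455561-38496335, plus strand) had a TPM of 8.80, 5.99 and 3.23 in WT and of 10.4, 5.84 and 1.80 in C5aR-/- TAMs. The group means were 6.01 ± 2.79 and 6.003 ± 4.29 TPM (SD, n = 3), while the highest C5aR-/- library held 5.76 times the lowest. Cd86 (ENSMUSG00000022901, chr16:36603869-36666081, minus strand) had a TPM of 21.0, 13.9 and 9.45 in WT and of 26.2, 8.66 and 8.46 in C5aR-/- TAMs. In C5aR-/- TAMs a single library, TAM 1, stood above the other two. Between groups, the log2 difference was -0.14 for Cd80 (95% interval -1.47 to 1.20, limma adjusted p = 0.933) and -0.15 for Cd86 (-1.29 to 0.99, adjusted p = 0.911). A difference of 2-fold in either direction lies inside the Cd80 interval, and a lower level by 2-fold lies inside the Cd86 interval. Cd86 exceeded Cd80 in every library, by 2.38-, 2.32- and 2.93-fold in WT and by 2.53-, 1.48- and 4.70-fold in C5aR-/- TAMs.

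Cd40 (ENSMUSG00000017652, chr2:165055627-165072948, plus strand), the receptor for T cell help, had a TPM of 16.0, 10.9 and 7.63 in WT and of 14.1, 10.4 and 5.39 in C5aR-/- TAMs. The lowest value was in C5aR-/- and the highest in WT TAMs, and the ranges overlapped for most of their length. For Cd40, the log2 difference was -0.22 (95% interval -1.14 to 0.70, limma adjusted p = 0.831).

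Havcr2 was the only member whose groups did not overlap. The gene (ENSMUSG00000020399, chr11:46454935-46481255, plus strand) encodes TIM-3, whose promoter matches are shown above. Its TPM was 6.0, 5.18 and 7.11 in WT and 10.1, 8.90 and 9.84 in C5aR-/- TAMs. Every C5aR-/- library was above every WT library, and the spread within each group was small, with the highest library at 1.37 times the lowest in WT and 1.14 times in C5aR-/- TAMs. The means were 6.10 ± 0.969 and 9.63 ± 0.647 TPM (SD, n = 3), a ratio of 1.58. The log2 difference was 0.59 (standard error 0.19, 95% interval 0.15 to 1.03), with an unadjusted p of 0.0167 and an adjusted p of 0.242 (limma). The two-sided exact permutation p was 0.1, the smallest possible. Thus the difference failed the correction and the fold requirement. Over all tested genes, 8.84% lay higher in C5aR-/- TAMs without overlap, and 3.50% had a share of variance between groups at least as large as the 84.9% of Havcr2. Without WT TAM 2 the log2 difference was 0.49 and its unadjusted p was 0.0713 (limma), the only one of 14 alternatives above 0.05.

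Vsir and Vsig4, a pair of inhibitory B7-type molecules, varied widely within the groups. Vsir (ENSMUSG00000020101, chr10:60346851-60372684, plus strand), which encodes VISTA, had a TPM of 51.5, 37.5 and 23.3 in WT and of 78.0, 40.1 and 18.2 in C5aR-/- TAMs. The C5aR-/- libraries held both the highest and the lowest value. Vsir had a log2 difference of 0.11 (95% interval -1.15 to 1.38, limma adjusted p = 0.941). Vsig4 (ENSMUSG00000044206, chrX:96247203-96293438, minus strand), a complement receptor of resident macrophages that binds C3 fragments, had a TPM of 45.1, 9.91 and 9.07 in WT and of 48.4, 26.4 and 15.0 in C5aR-/- TAMs. WT TAM 1 alone reached the C5aR-/- range, and the other two WT libraries lay below all C5aR-/- libraries. The log2 difference of Vsig4 was 0.70 (95% interval -0.91 to 2.30, limma adjusted p = 0.676). Without WT TAM 1 it was 1.41, with an unadjusted p of 0.0271 and an adjusted p of 0.353 (limma), so this library decides whether Vsig4 passes the unadjusted threshold.

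Macrophage content can differ between sorted libraries, so 7 members were also expressed relative to Adgre1, which encodes F4/80, the marker of the gate. The ratio of Vsig4 to Adgre1 was 0.395, 0.217 and 0.358 in WT and 0.531, 0.658 and 0.536 in C5aR-/- TAMs. On this scale the groups did not overlap, and the log2 difference was 0.87 (two-sided exact permutation test, p = 0.1, adjusted p = 0.88 over 11 ratios). Leaving out any 1 library gave from 0.61 to 1.04. In TPM itself the Vsig4 groups overlapped. The share of all tested genes without overlap relative to Adgre1 is not given, so the separation is not read as a result. Adgre1 was 1 of the 3 macrophage markers, of 10, with a lower mean in C5aR-/- TAMs (log2 difference -0.13), whereas Cd68 and Csf1r had differences of 0.83 and 0.59. With the mean of all 10 markers as a covariate, the log2 difference of Vsig4 was 0.32 (limma, unadjusted p = 0.178, adjusted p = 0.452), so the size of the Vsig4 difference depends on the reference, and that of Havcr2 was 0.60 (unadjusted p = 0.0204, adjusted p = 0.195). The ratio of Havcr2 to Adgre1 overlapped between groups, from 0.0525 to 0.280 in WT and from 0.111 to 0.352 in C5aR-/- TAMs (log2 difference 0.79, exact permutation p = 0.5). Ratios of Vsir, Sirpa, Cd86, Cd274 and Cd40 to Adgre1 overlapped as well, with log2 differences from -0.12 for Cd40 to 0.45 for Cd274.

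**Figure D2:**
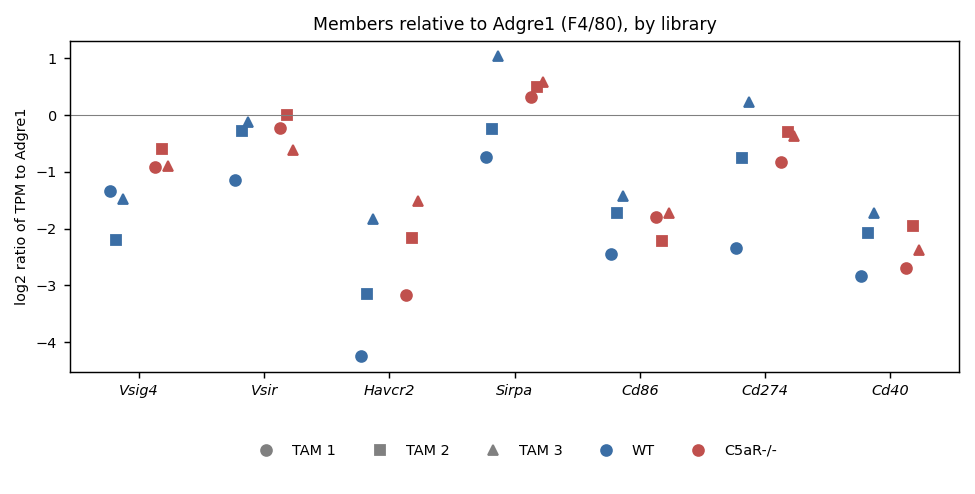
Log2 ratio of the TPM of 7 members to that of Adgre1 (y axis) in each WT (blue) and C5aR-/- (red) library, 1 symbol per library. The Vsig4 ratios of the 3 C5aR-/- libraries, 0.531 to 0.658 before the log, lie above those of the 3 WT libraries, 0.217 to 0.395, and the groups overlap for the other 6 genes.

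Sirpa (ENSMUSG00000037902, chr2:129592835-129632228, plus strand), the phagocytosis checkpoint receptor, was the most abundant member. It has close relatives, the Sirpb genes, and how shared reads were assigned is not stated. Its TPM was 68.8, 38.8 and 52.4 in WT and 114, 56.4 and 41.7 in C5aR-/- TAMs. C5aR-/- TAM 1 stood above all other libraries, and the other two C5aR-/- libraries lay within the WT range. The log2 difference was 0.31 (95% interval -0.62 to 1.24, limma adjusted p = 0.755), and without C5aR-/- TAM 1 it was -0.10. Cd47, its ligand, had a TPM from 101 to 124 in WT and from 106 to 143 in C5aR-/- TAMs, with a log2 difference of 0.09 (adjusted p = 0.837). The ratio of Sirpa to Cd47 was 0.614, 0.384 and 0.423 in WT and 0.800, 0.502 and 0.395 in C5aR-/- TAMs. These ratios overlapped, with a log2 difference of 0.22 (two-sided exact permutation test, p = 0.6).

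Levels of the 10 genes covered a wide range. By mean TPM over the 6 libraries the order was Sirpa (62.0), Vsir (41.4), Cd274 (30.8), Vsig4 (25.6), Cd86 (14.6), Cd40 (10.7), Havcr2 (7.86), Cd80 (6.01), Pdcd1 (3.31) and Pdcd1lg2 (0.953). Sirpa was above Vsir and Pdcd1 above Pdcd1lg2 in all 6 libraries. Cd274, Cd86, Cd40 and Cd80 were each above the next gene in 5 libraries. Vsir and Cd274 were less clearly ordered, with Vsir higher in 4 libraries, and so were Vsig4 and Cd86. Havcr2 exceeded Cd80 in 3 libraries, so these neighbors did not differ beyond the spread of the libraries.

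**Figure D3:**
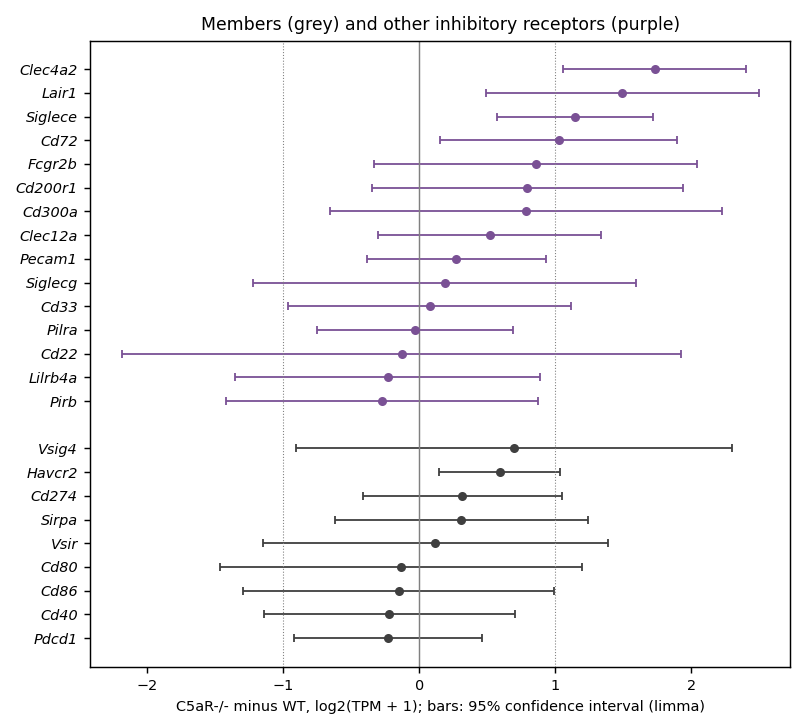
Difference in log2(TPM + 1), C5aR-/- minus WT (x axis), for the 9 tested members (grey) and 15 other inhibitory receptors (purple), with points for the estimate and bars for its 95% confidence interval from limma. Among the members the interval of Havcr2, 0.15 to 1.03, is the only one above 0, and the dotted lines mark a 2-fold difference.

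Much of the variation of the members lay between libraries of the same genotype. Summed over the 10 genes, the TPM was 244, 155 and 146 in WT TAM 1, 2 and 3 and 356, 194 and 125 in C5aR-/- TAM 1, 2 and 3. C5aR-/- TAM 1 was the highest library for 8 of the 10 genes, and C5aR-/- TAM 3 the lowest for 6 of them. Cd80, Cd86, Cd40, Vsir and Vsig4 were highest in TAM 1 and lowest in TAM 3 of both groups, which makes 5 of 10 members, against 6.88% of the 14776 tested genes. Macrophage markers followed the same order, 8 of 10 of them in full. Their sum was 8022, 3171 and 2082 TPM in WT and 7496, 4286 and 1956 TPM in C5aR-/- TAMs. Of the 11 T cell markers and the 6 B cell markers, 1 each had this full order. All 6 B cell markers were nevertheless higher in TAM 1 than in TAM 3 of both groups, with sums of 143, 169 and 34.1 TPM in WT and 176, 56.1 and 10.3 TPM in C5aR-/- TAMs. Havcr2, Cd274, Pdcd1lg2, Pdcd1 and Sirpa did not have this order. The part of macrophage or B cell content in the member values was not tested. Havcr2 made up 2.46%, 3.34% and 4.88% of the members' total in WT and 2.85%, 4.58% and 7.85% in C5aR-/- TAMs.

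**Figure D4:**
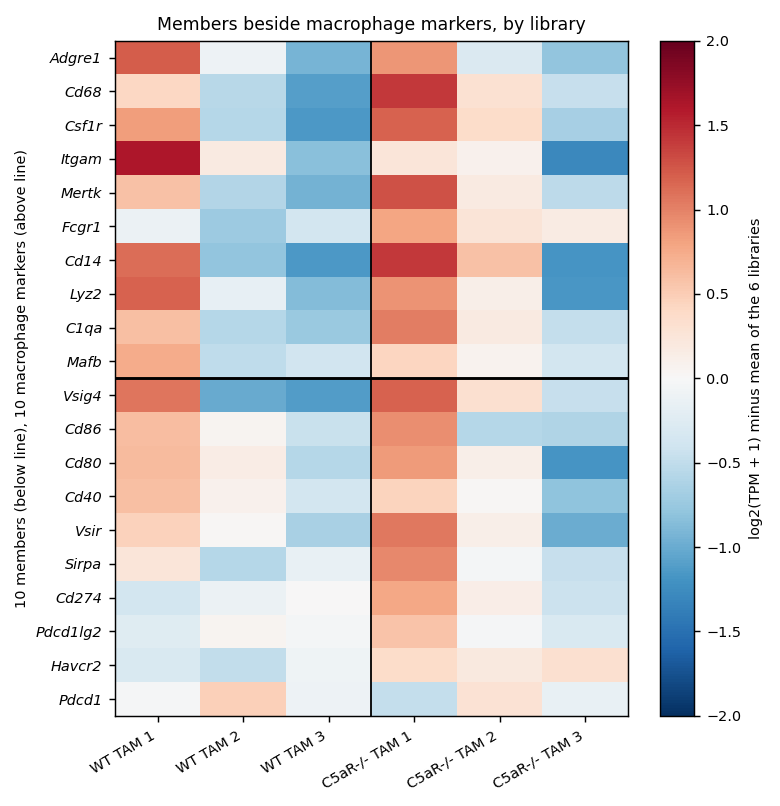
Deviation of log2(TPM + 1) from the mean of the 6 libraries (color scale) for 10 macrophage markers, above the line, and the 10 members, below it, with 1 column per library. TAM 1 of both groups is red and TAM 3 blue for most macrophage markers and for Cd80, Cd86, Cd40, Vsir and Vsig4, whereas Havcr2 is blue in all 3 WT and red in all 3 C5aR-/- columns.

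The genes whose log2(TPM + 1) was most like that of each member were named by Pearson's r over the 6 libraries. These values describe genes selected from 14776, with shared libraries as the points, and no p was computed. Vsig4 was most like C1qc, a complement component of macrophages (r = 0.990). Cd40 was most like Rgs18 (0.997) and the inhibitory receptors Lilrb4a (0.996) and Pirb (0.995). Cd80 was most like the immunoglobulin gene Ighv1-55 (0.998), Pitpnc1 (0.994) and Nrros (0.994), and for Vsir the immunoglobulin gene Igkv4-53 (0.998) stood beside AB124611 (0.9995) and Slc16a6 (0.996). The TPM of Ighv1-55 was 48.7, 17.9 and 3.87 in WT and 98.6, 18.2 and 0.47 in C5aR-/- TAMs, so an antibody gene followed the library order of these members. Cd86 was most like Derl1 (0.995), Gm614 (0.985) and Bach2 (0.981), a regulator of lymphocytes. Havcr2 had Mum1l1 (0.995), Lpar6 (0.994) and Rnf39 (0.992) as its nearest genes, Cd274 had Fkbp15 (0.990), Sema4d (0.990) and Gm13293 (0.987), Pdcd1 had Myl9 (0.984), Abhd10 (0.977) and Ppp6r3 (0.973), and Sirpa had Dnajb12 (0.993), Gm17415 (0.992) and Ipmk (0.987). For Vsig4 the next were Galns (0.982) and Tulp4 (0.979).

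Among the 8 pathway lists examined beside the members, that of other inhibitory receptors held the most genes past the unadjusted threshold. It holds receptors of myeloid cells and also some best known from B cells, such as Cd72. Most of these 15 receptors signal, like SIRPα, through cytoplasmic tyrosine motifs that recruit phosphatases. Clec4a2, Lilrb4a and Pirb have close relatives in the genome, so reads shared with them may have been split. Of the 15, 11 had a higher and 4 a lower mean in C5aR-/- TAMs. Their median log2 difference was 0.51, and 4 were higher at an unadjusted p under 0.05 with a fold of at least 2, against 2.13% of all tested genes in that direction. None was lower by that rule, against 2.84%, and none passed the adjusted threshold (limma). This list was chosen with earlier results of these data known, so these shares are descriptions and not a test. Leaving out C5aR-/- TAM 1 lowered the median to 0.18, and leaving out C5aR-/- TAM 3 raised it to 0.81. Cell type markers passed the same rule in larger shares, with 5 of 9 large peritoneal macrophage genes (median -2.00) and 4 of the 6 tested neutrophil genes (median -1.82), all lower in C5aR-/- TAMs, and their part in the receptor values was not tested. Macrophage markers, 7 of 10 of which also had a higher mean in C5aR-/- TAMs, had a median difference of 0.51 too. Clec4a2, a C-type lectin receptor, had a TPM of 7.96, 6.57 and 5.72 in WT and of 36.2, 23.1 and 17.5 in C5aR-/- TAMs. Its lowest C5aR-/- library was above its highest WT library by more than 2-fold, and the log2 difference was 1.73 (standard error 0.28, limma adjusted p = 0.0922). Without C5aR-/- TAM 1 its adjusted p was 0.0324, and over the 14 alternatives it ranged from 0.0324 to 0.411 (limma).

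Siglece, a receptor for sialic acid, had a TPM of 3.31, 3.23 and 4.85 in WT and of 12.0, 8.92 and 7.92 in C5aR-/- TAMs. Lair1, a collagen receptor, had a TPM of 16.9, 6.32 and 19.8 in WT and of 52.1, 33.9 and 31.6 in C5aR-/- TAMs. For both genes the groups did not overlap, and the log2 differences were 1.14 (standard error 0.24, limma adjusted p = 0.1299) and 1.49 (standard error 0.42, adjusted p = 0.210). Cd72, a receptor best known from B cells, had a TPM of 10.3, 22.7 and 30.7 in WT and of 39.0, 42.0 and 40.1 in C5aR-/- TAMs. The C5aR-/- values lay close together above a wide WT group, with a log2 difference of 1.02 (standard error 0.36, limma adjusted p = 0.289). In contrast to Havcr2, whose difference was 1.5-fold, these 4 genes passed the fold requirement. Siglece missed it without C5aR-/- TAM 1 (log2 difference 0.99), and Cd72 no longer passed without WT TAM 1, C5aR-/- TAM 2 or C5aR-/- TAM 3, with differences from 0.60 to 1.34 over the alternatives. Without C5aR-/- TAM 3, 6 of the 15 receptors passed, and without C5aR-/- TAM 1 or TAM 2, 3 did. Of all 14776 tested genes, 314 passed as higher with all libraries and 323 without C5aR-/- TAM 3. There were 619 without C5aR-/- TAM 1 and 279 without C5aR-/- TAM 2.

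**Figure D5:**
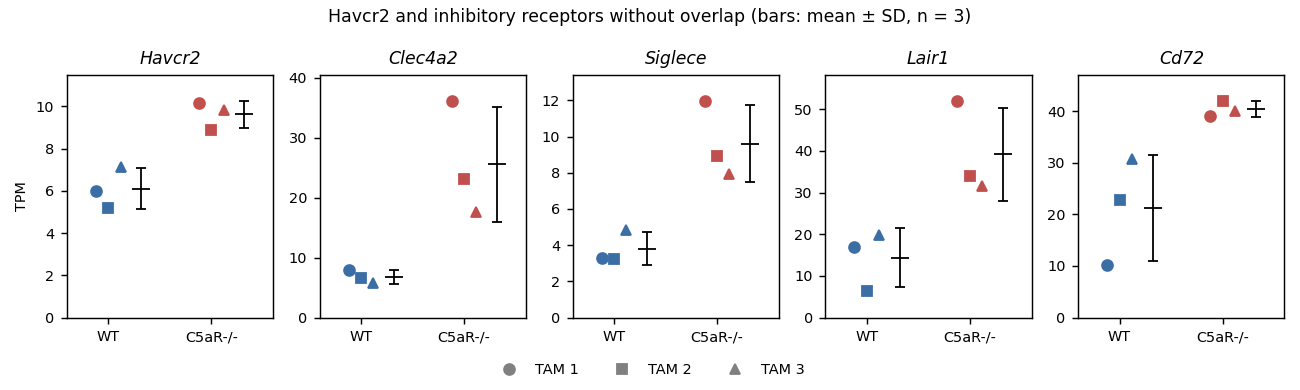
TPM (y axis, from 0) of Havcr2 and of the 4 other inhibitory receptors past the unadjusted threshold, in WT (blue) and C5aR-/- (red) TAMs, with 1 symbol per library and the mean ± SD (n = 3). In each panel the 3 C5aR-/- libraries lie above the 3 WT libraries, with the largest ratio of lowest C5aR-/- to highest WT value for Clec4a2, at 17.5 to 36.2 TPM against 5.72 to 7.96.

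Downstream of these receptors, 5 of 6 signaling genes had a higher and 1 a lower mean in C5aR-/- TAMs, and the list's median was 0.12 on the log2 scale. It was -0.20 without C5aR-/- TAM 1 and -0.04 with the macrophage marker covariate. None passed the 2-fold rule. Fyb, an adaptor of immune receptor signaling, had a TPM of 44.7, 41.2 and 40.9 in WT and of 116, 67.8 and 48.3 in C5aR-/- TAMs, without overlap (log2 difference 0.76, standard error 0.30, limma adjusted p = 0.323). The phosphatase gene Inpp5d had a log2 difference of 0.21 with overlapping groups. The adaptor gene Skap2 had a TPM of 67.4, 77.7 and 67.7 in WT and of 57.2, 62.3 and 56.0 in C5aR-/- TAMs, lower without overlap (log2 difference -0.27, unadjusted p = 0.0650, limma adjusted p = 0.377). Ptpn11, which encodes the phosphatase SHP2 and was named after its values were seen, was higher without overlap, with a difference of 0.20. Of the 6 genes, 2 lay higher without overlap, against 8.84% of all tested genes, and 1 lower, against 12.5%.

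Most genes of the members' binding partners, on T cells, tumor cells or in complement, had a lower mean in C5aR-/- TAMs. Of 12, 11 were tested, and 10 of these had a lower mean, where 44.5% of all tested genes had a higher one. The list's median log2 difference was -0.54 (-1.01 without C5aR-/- TAM 1 and -0.24 without C5aR-/- TAM 3), and 0 passed the 2-fold rule at an unadjusted p under 0.05. Of the 11 T cell markers, 9 had a lower mean as well, and the part of T cell content was not tested. Lgals9, the gene of galectin-9, a ligand of TIM-3, had a TPM of 170, 173 and 177 in WT and of 149, 88.3 and 59.7 in C5aR-/- TAMs. The tight WT group lay above all C5aR-/- libraries, a pattern in the opposite direction to Havcr2. The log2 difference was -0.90 (standard error 0.31, unadjusted p = 0.0236, limma adjusted p = 0.276). Lgals9 was the 1 of 11 tested partners that lay lower without overlap, against 12.5% of all tested genes. Hmgb1, which encodes another TIM-3 ligand, had a log2 difference of -0.07 with overlapping groups. C3, whose fragments bind VSIG4, had a TPM of 397, 388 and 1064 in WT and of 188, 527 and 538 in C5aR-/- TAMs, and the difference of -0.54 overlapped.

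Of 15 other checkpoint and costimulatory ligands, 11 were tested, 7 with a higher and 4 with a lower mean, and 0 passed the 2-fold rule at an unadjusted p under 0.05. Nectin2 and Pvr, the ligands of TIGIT and CD226, had log2 differences of -0.20 and 0.39, both with overlapping groups. Cd24a, a ligand of Siglec receptors, had a TPM of 110, 87.4 and 69.2 in WT and of 66.0, 37.5 and 58.9 in C5aR-/- TAMs. All C5aR-/- libraries were below the WT libraries, with a log2 difference of -0.72 (unadjusted p = 0.0300, limma adjusted p = 0.297). In this list 2 of the 11 tested ligands lay lower without overlap, against 12.5% of all tested genes. Of 11 checkpoint and costimulatory receptors of T cells, 10 were tested, 4 with a higher and 6 with a lower mean, and none passed the 2-fold rule. Tnfrsf18, which encodes GITR, had a TPM of 7.52, 9.34 and 7.79 in WT and of 6.98, 3.67 and 4.09 in C5aR-/- TAMs, without overlap (log2 difference -0.68, unadjusted p = 0.0355, limma adjusted p = 0.312). Of these 10 receptors, 1 lay lower without overlap, against 12.5% of all tested genes, and 1 higher, against 8.84%. Btla and Cd244a had log2 differences of 0.11 and -0.14.

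The pathways that act on the members gave no gene past the 2-fold rule. For CD40 and NF-κB signaling, 6 of 16 genes had a higher and 10 a lower mean, with a median log2 difference of -0.12. At an unadjusted p under 0.05 (limma), 1 of the 16 was called, against 14.4% of all tested genes in either direction and 6.06% higher. It was Map3k14, the gene of the kinase NIK, with a TPM of 22.7, 22.8 and 30.8 in WT and of 31.4, 34.3 and 34.5 in C5aR-/- TAMs (log2 difference 0.39, unadjusted p = 0.0488, limma adjusted p = 0.344). Traf1 and Traf3 were also higher without overlap, with differences of 0.25 and 0.28, which makes 3 of 16 against 8.84% of all tested genes. These 3 genes were named after their values were seen. The NF-κB inhibitors Nfkbia and Tnfaip3 had log2 differences of -0.40 and -0.33, and the subunit gene Rela one of 0.09. For the interferon-γ axis, which induces PD-L1, 4 of 17 genes had a higher and 13 a lower mean, with a median of -0.38 (-0.16 without WT TAM 3 and -0.13 without C5aR-/- TAM 3) and 0 genes at an unadjusted p under 0.05 (limma). Gbp2, an interferon-induced GTPase, had a TPM of 54.3, 140 and 546 in WT and of 52.9, 38.2 and 68.2 in C5aR-/- TAMs. WT TAM 3 was its highest library. Within WT, Gbp2 and Cd274 were both lowest in TAM 1 and highest in TAM 3, whereas over all libraries Cd274 was highest in C5aR-/- TAM 1, where Gbp2 was low. A link between them was not tested. The log2 difference was -1.62 for Gbp2 and -0.79 for Socs3, both with overlapping groups. For the IL-4 axis, which induces PD-L2, 12 of 14 genes were tested, 5 with a higher and 7 with a lower mean, with 0 at an unadjusted p under 0.05. Arg1 had a TPM of 180, 81.8 and 63.6 in WT and of 237, 349 and 111 in C5aR-/- TAMs, with a log2 difference of 1.09 and overlapping groups, and Il4ra and Stat6 had differences of 0.19 and -0.19. Other genes of this list went both ways, with 1.46 for Mrc1, -1.74 for Retnla and -1.08 for Chil3, all with overlapping groups. Mrc1, Retnla and Chil3 were named after their values were seen.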

How the data were processed

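Poly(A) RNA of sorted TAMs was sequenced as paired reads from strand-marked libraries. Per the submitters' processing notes and the methods, the authors used fastp, HISAT2, StringTie, RSEM and DESeq2 with the mm10 genome, versions not given in the sources used here, and deposited TPM per gene and group means, which were not used. TPM holds no counts, so count tests were not run, depth is unknown and precision rests on the spread of 3 libraries a group.

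Groups and replicate numbers were taken from the labels. Genes that reached a TPM of 1 in 3 or more libraries were compared as log2(TPM + 1), which understates changes of low genes, with limma 3.58.1 in R 4.3.3 (eBayes with trend, all 6 libraries, Benjamini-Hochberg adjustment). Exact permutation tests were two-sided, on log2(TPM + 1) or log2 ratios (scipy 1.17.1, Python 3.11.15). The limma step was tested on simulated data in which genes varied independently. Those data lack the differences between libraries that many genes share here, so the test does not measure the error of these calls. Symbols and gene positions came from GENCODE M21 (GRCm38), and promoters from RefSeq.

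Members and lists were chosen with earlier results of these data known. Named genes were all 10 members, C5ar1, in each list the genes past the unadjusted threshold and otherwise the 3 of highest mean TPM, and for each tested member the 3 most similar genes; 1 of the genes so named and 1 motif searched are not reported here. Cd47 and Adgre1 served as denominators of ratios. Alternative settings were no filter on low values, a stricter one (TPM of 5 or more), a pseudocount of 0.1, median-of-ratios or quantile scaling, a block for replicate number, eBayes without trend, a macrophage index covariate (the mean of 10 macrophage markers) and leaving out each library.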

Additional observations from a re-analysis of the deposited data

How the results depend on the processing

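Of 125 refits of the 9 tested members, 11 changed direction and 0 passed the adjusted threshold. Havcr2 kept its direction in all 14 alternatives, with a log2 difference of 0.49 to 0.69 and an adjusted p of 0.195 to 0.691 (limma). Leaving out 1 library gave 0.0060 to 0.61 for Cd274, 0.28 to 1.41 for Vsig4 and -0.43 to -0.048 for Pdcd1, and changed direction for Cd80 (-0.60 to 0.41), Cd86 (-0.66 to 0.12), Cd40 (-0.50 to 0.12), Vsir (-0.38 to 0.64) and Sirpa (-0.098 to 0.62). The macrophage index covariate gave -0.17 for Vsir, 0.32 for Vsig4, 0.13 for Sirpa, 0.24 for Cd274, -0.43 for Cd80, -0.39 for Cd86, -0.42 for Cd40 and -0.19 for Pdcd1. Pdcd1 was not tested under a TPM of at least 5.

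Members at the unadjusted threshold numbered from 0 to 1 when 1 library was left out (Vsig4 without WT TAM 1), and members without overlap from 1 to 2. The second was Vsig4 without WT TAM 1, Cd86 without C5aR-/- TAM 1, Pdcd1 without C5aR-/- TAM 2 and Cd274 without C5aR-/- TAM 3. Leaving out a library can only keep or add genes without overlap. The share over all tested genes is not given for these subsets, so the added members are not read as a result. Over all genes, the adjusted rule called 2 with eBayes without trend, 29 with the macrophage index covariate and 0 to 356 when 1 library was left out, the 356 without C5aR-/- TAM 1. The unadjusted rule called 733 genes, 475 under a TPM of at least 5 and 567 to 1266 when 1 library was left out. Its 314 higher and 419 lower genes became 386 and 371 under quantile normalization.

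Ratios to another gene changed direction when 1 library was left out for Cd274 to Pdcd1lg2 (-0.053 to 0.21), Cd86 to Cd80 (-0.39 to 0.45), Sirpa to Cd47 (-0.059 to 0.45) and, relative to Adgre1, for Vsir (-0.076 to 0.44), Cd86 (-0.34 to 0.17), Cd274 (-0.24 to 1.04) and Cd40 (-0.44 to 0.12). A pseudocount of 1 gave -0.016 for Cd86 to Cd80. List medians without 1 library ran from -1.01 to -0.24 for binding partners, -0.35 to 0.37 for other ligands, -0.28 to -0.12 for T cell receptors, 0.18 to 0.81 for inhibitory receptors, -0.20 to 0.26 for their signaling genes, -0.14 to -0.01 for CD40 and NF-κB, -0.52 to -0.13 for interferon-γ and -0.17 to 0.097 for IL-4. The cause of these shifts was not tested.

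Deviations from the group means correlated at r = 0.19, -0.01 and 0.27 for libraries sharing replicate number 1, 2 and 3, and at -0.23 to 0.09 for the 6 pairs with different numbers. Numbers 1 and 3 thus deviated together and number 2 did not. Since this does not hold for every pair and no source says what a number marks, the numbers were not taken as pairs. With the replicate number as a block, 0 members passed either threshold and 811 genes passed the unadjusted one.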

Other observations

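The 4 genes given here belong to the same pathway lists and were chosen after their values were seen. Cd276, which encodes the checkpoint ligand B7-H3, had a TPM of 4.14, 3.83 and 5.53 in WT TAM 1, 2 and 3 and of 3.97, 18.7 and 32.0 in C5aR-/- TAM 1, 2 and 3. The log2 difference was 1.44 (limma adjusted p = 0.381), and C5aR-/- TAM 1, which held the highest TPM of 8 members, was within the WT range for Cd276. Vtcn1, which encodes B7-H4, had a TPM of 2.49, 1.68 and 5.78 in WT and of 19.5, 1.5 and 0.86 in C5aR-/- TAMs, so 1 library made up most of the group. Tigit, an inhibitory receptor of T cells, had a TPM of 2.35, 5.33 and 5.73 in WT and of 6.36, 7.97 and 6.46 in C5aR-/- TAMs, without overlap, with an unadjusted p of 0.0978 and an adjusted p of 0.433 (limma). Ctla4, which encodes the inhibitory receptor for CD80 and CD86, had a TPM of 13.0, 9.27 and 6.73 in WT and of 19.5, 4.90 and 3.40 in C5aR-/- TAMs, highest in TAM 1 and lowest in TAM 3 of both groups like Cd80 and Cd86.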
